A study of Mus musculus with 4 samples.

Results

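Leukocyte integrins and their partners let white blood cells hold on to other cells. The 8 genes described here encode integrin chains of leukocytes (Itgb2, Itgam, Itgal, Itgax and Itgb7), the integrin activator Fermt3, the integrin ligand Icam1 and the selectin ligand Selplg. They were taken by symbol from the table of gene expression in Tet2 KO and WT myoblasts, where they are 8 of 24445 genes. The genes were proposed with earlier results of these data known. To examine what loss of Tet2, a dioxygenase that converts 5-methylcytosine to 5-hydroxymethylcytosine, does to transcripts of muscle precursors, RNA was sequenced from 2 libraries of WT and 2 libraries of Tet2 KO primary myoblasts. Both groups were on the C57BL/6 background, and per the study's methods the mice were young adult males unless stated otherwise. The Tet2 KO allele lacked exon 3 in the germline, so every cell type of those animals carried it, and the WT group carried no allele or agent of its own. Satellite cells (muscle stem cells) were isolated from hindlimb muscle by flow cytometry. The gate took propidium iodide-negative cells without CD45, CD11b, CD31 and Sca1 that carried CD34 and integrin alpha 7. The sorted cells were cultured on type I collagen in a T cell medium for at least 3 days, until they expressed MyoD. How many animals stand behind a library is not given in the sources used here.

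The table gave a single FPKM value for each gene in each group, a number of sequenced fragments scaled by transcript length and library size. This was read here as the authors' value over the libraries of that group. No value per library was used, so no SD, n or p-value stands beside any level below, and no difference could be set against the spread between replicates. The number of fragments behind each value is unknown. Tet2 itself was listed at 5.79 FPKM in Tet2 KO against 6.64 in WT. This value covers the whole gene, so the deleted exon cannot be seen in it and the labels are not checked by it.

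Integrins are receptors of 1 alpha and 1 beta chain. The beta chain CD18, encoded by Itgb2, pairs with CD11a (Itgal), CD11b (Itgam), CD11c (Itgax) or CD11d (Itgad), and these receptors are found on leukocytes. A leukocyte first rolls on selectins through mucins such as PSGL-1 (Selplg), and then arrests when talin and kindlin-3 (Fermt3) bind the beta chain tail and the integrin grips ligands such as ICAM-1 (Icam1). Skeletal muscle precursors use other family members, chiefly beta 1 integrins (Itgb1) with kindlin-2 (Fermt2), while leukocytes enter muscle in numbers after injury.

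The sequences that bear on these genes are the pair of Itgb2 primers that the study lists for quantitative PCR and the promoters of 3 members. The primers show which stretch of the shared beta chain can be amplified. Both matched exon 12 of Itgb2 in mm9, within its coding sequence, and no other annotated protein-coding gene held an exact match to either. The forward primer lies at chr10:77022295-77022316 and the reverse primer at chr10:77022438-77022459, which gives a product of 165 bases.
Itgb2 forward primer: gaaactgtcggaaggacaatag
Itgb2 reverse primer: cgcagacttggctgttatatct

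Promoters were read from RefSeq sequences of build GRCm38.p6, which held 5 of the 8 members (Itgam, Itgax, Itgb7, Fermt3 and Icam1). Itgam and Itgax are shown because they are neighbouring genes on chromosome 7 whose values lay far apart, and Icam1 because it encodes the ligand rather than a receptor chain. Each run is the 250 bases before the annotated start, on the plus strand. The windows are chr7:128062390-128062639 for Itgam, chr7:128129300-128129549 for Itgax and chr9:21015690-21015939 for Icam1. Capitals mark the letters GAGGAA, a core bound by ETS factors such as the myeloid factor PU.1, and GGAAATTCC, a form of the NF-kappaB site, on either strand.
Itgam: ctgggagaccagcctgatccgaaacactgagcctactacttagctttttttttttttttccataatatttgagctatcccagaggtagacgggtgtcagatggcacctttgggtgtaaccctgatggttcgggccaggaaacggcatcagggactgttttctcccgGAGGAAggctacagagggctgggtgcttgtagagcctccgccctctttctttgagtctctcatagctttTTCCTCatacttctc
Itgax: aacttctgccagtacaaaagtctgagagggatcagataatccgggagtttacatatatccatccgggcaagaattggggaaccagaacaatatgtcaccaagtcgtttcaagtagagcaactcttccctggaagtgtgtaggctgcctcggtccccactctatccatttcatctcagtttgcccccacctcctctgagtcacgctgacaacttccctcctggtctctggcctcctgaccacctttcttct
Icam1: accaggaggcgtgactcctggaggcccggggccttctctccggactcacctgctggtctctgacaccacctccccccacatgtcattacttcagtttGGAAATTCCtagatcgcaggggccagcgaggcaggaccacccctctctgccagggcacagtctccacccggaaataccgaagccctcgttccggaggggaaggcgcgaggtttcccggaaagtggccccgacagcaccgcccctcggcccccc
GAGGAA started at positions -84 and -15 from the Itgam start, the second time on the reverse strand and so printed as TTCCTC. GGAAATTCC stood at position -153 of Icam1. No match overlapped another. Of 32851 mouse promoters of the same length, 23.3% held GAGGAA and 0.286% held GGAAATTCC. Neither motif was found in the windows of Itgax, Itgb7 or Fermt3. The E-box CAGCTG, a form bound by MyoD, was found in none of the 5 windows and in 13% of all promoters. The Icam1 window held 15 CpG dinucleotides, Itgam 6, Itgax 5, Itgb7 5 and Fermt3 1, with a median of 6 over all promoters. These matches describe the letters of the windows and are no evidence of binding.

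All 8 genes had a higher value in Tet2 KO than in WT myoblasts. The ratios of the FPKM values ran from 1.65-fold for Itgax to 4.94-fold for Itgal. Among genes that averaged at least 1 FPKM over the 2 groups, differences were further measured as log2((Tet2 KO FPKM + 1) / (WT FPKM + 1)), and a gene was counted as at least 2-fold higher or lower when this value reached 1 or -1. The added 1 understates the difference of genes with low values. Counts of 2-fold genes below use this log2 limit unless another is named, so a gene past 2-fold as a plain ratio can stay uncounted. Of the 8 genes, 6 reached the mean FPKM of 1. Of these, 4 (Itgb2, Itgam, Fermt3 and Selplg) were at least 2-fold higher in Tet2 KO and 0 were lower, beside 2.08% of 11692 genes that were higher and 1.21% that were lower. Selplg entered this count only through its Tet2 KO value, since it was under 1 FPKM in WT. The median log2 difference of the 6 genes was 1.24, and that of all 11692 genes was -0.0044. Because of how the genes were proposed, the count describes them and is not independent evidence of a direction.

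**Figure D1:**
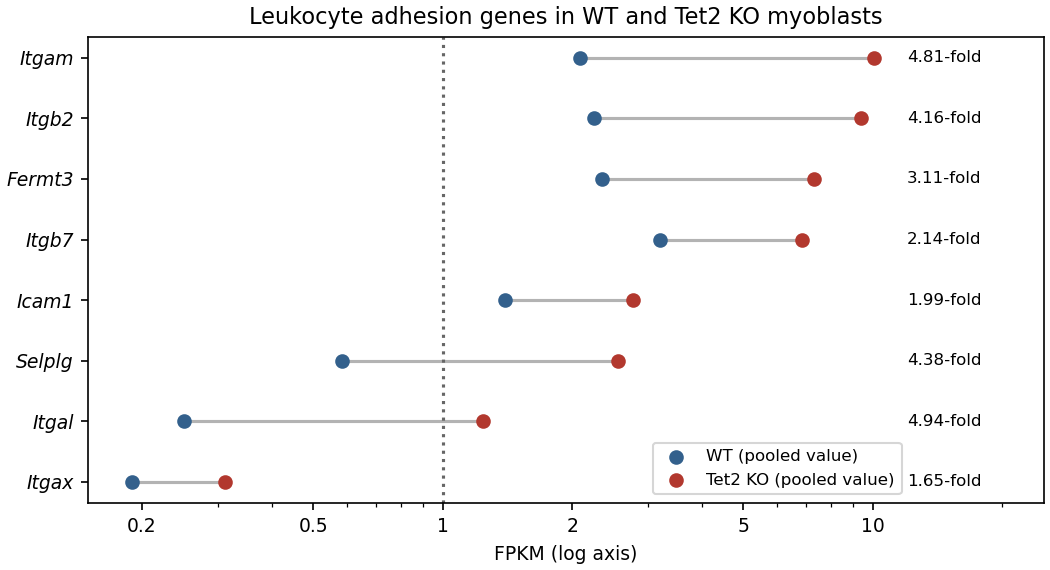
FPKM (log axis) of the 8 leukocyte adhesion genes in WT (blue) and Tet2 KO (red) myoblasts, 1 value per group, with the Tet2 KO to WT ratio printed at the right. The red point lies right of the blue point for all 8 genes, and the dotted line at 1 FPKM separates Itgax, below it in both groups, from the 5 genes above it in both, with Selplg and Itgal crossing it.

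The shared beta chain Itgb2 was at 9.37 FPKM in Tet2 KO against 2.25 in WT myoblasts. The Tet2 KO value was thus 4.16-fold the WT value, a log2 difference of 1.67 that ranked 67 from the highest among 11692 genes. Itgb2 lies at chr10:76993093-77028419 (mm9, plus strand) and has 16 exons. Loss of CD18 in humans and mice leaves leukocytes poorly able to arrest on vessel walls.

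Among the alpha chains, Itgam stood highest in both groups. It was at 10.1 FPKM in Tet2 KO against 2.09 in WT, 4.81-fold higher, with a log2 difference of 1.84 at rank 48. Itgam lies at chr7:135206154-135262005 (plus strand, 30 exons). Its product CD11b, the alpha chain of complement receptor 3 (Mac-1) on macrophages and neutrophils, was one of the markers the sort excluded, and its transcript was present in both cultured groups.

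Itgal, whose product forms LFA-1 with CD18 on nearly all leukocytes, was at 1.24 FPKM in Tet2 KO against 0.251 in WT. This was the highest ratio of the 8 genes, 4.94-fold, but its mean of 0.745 FPKM was under 1 and its log2 difference was 0.84. Itgal lies at chr7:134439774-134478651 (plus strand, 30 exons). Itgax, whose product CD11c is carried by dendritic cells and some macrophages, was at 0.312 FPKM in Tet2 KO against 0.189 in WT, with a log2 difference of 0.14. It lies at chr7:135273082-135294171 on the plus strand, just past Itgam. Its values are uncertain because 9.63% of the 50-base stretches of its transcript also occur in Itgad, the neighbouring chain with 74.0% identical coding bases. The coding identity of Itgam was 66.3% with Itgax and 59.9% with Itgal, and 0.294% of its 50-base stretches occurred in another gene.

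Itgb2 stood in a similar proportion to its alpha chains in both groups, with no error known for either. The 4 alpha chains that pair with CD18 summed to 11.6 FPKM in Tet2 KO against 2.54 in WT, and Itgb2 was 0.807 and 0.888 of that sum. Itgam made up 86.6% of the sum in Tet2 KO and 82.3% in WT. Itgal made up 10.7% and 9.87%, and Itgax 2.69% and 7.45%. Set against the widely expressed chain Itgb1, which was at 215 FPKM in Tet2 KO against 227 in WT, Itgb2 was at 4.36% and 0.994%. The leukocyte chain was thus a small part of the beta chain transcripts of both cultures.

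Itgb7 encodes the beta 7 chain, which pairs with alpha 4 (Itga4) or alpha E (Itgae) and guides lymphocytes to the gut. It was at 6.85 FPKM in Tet2 KO against 3.20 in WT, the highest WT value of the 8 genes. The ratio was 2.14-fold, and the log2 difference of 0.90 lay just under the 2-fold limit, at rank 282. Itgb7 lies at chr15:102046426-102062366 (minus strand, 15 exons). Its partner Itga4 was at 2.12 FPKM in Tet2 KO against 1.46 in WT, so Itgb7 was 3.23 and 2.2 times Itga4. Itgae was at 0.182 FPKM and 0.205 FPKM.

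Fermt3 encodes kindlin-3, the kindlin of blood cells, whose loss leaves integrins of leukocytes and platelets inactive. It was at 7.3 FPKM in Tet2 KO against 2.35 in WT, 3.11-fold higher, with a log2 difference of 1.31 at rank 146. Fermt3 (minus strand, 15 exons) is listed at the locus chr19:7070621-7093959, which is not its span alone. The table gives that locus to Trpt1 as well, a tRNA phosphotransferase gene at 3.30 FPKM in Tet2 KO against 4.31 in WT. The library kit does not mark strand, so reads where the pair overlap cannot be assigned by strand. The widely expressed kindlin gene Fermt2 was at 33.6 FPKM in Tet2 KO against 33.4 in WT, so Fermt3 was at 21.7% of Fermt2 in Tet2 KO and 7.04% in WT.

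Icam1 encodes the immunoglobulin superfamily ligand of LFA-1 and Mac-1, which many cell types raise under inflammatory signals. It was at 2.78 FPKM in Tet2 KO against 1.40 in WT, 1.99-fold higher, with a log2 difference of 0.66 at rank 389. Icam1 lies at chr9:20820384-20833258 (plus strand, 7 exons). Selplg encodes PSGL-1, the mucin through which leukocytes bind selectins. It was at 2.56 FPKM in Tet2 KO against 0.585 in WT, 4.38-fold higher, with a log2 difference of 1.17 at rank 183. Selplg lies at chr5:114267807-114280510 (minus strand, 2 exons), and it reached the mean FPKM of 1 only through its Tet2 KO value. Of the 6 genes that averaged at least 1 FPKM, Icam1 had the lowest ratio.

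**Figure D2:**
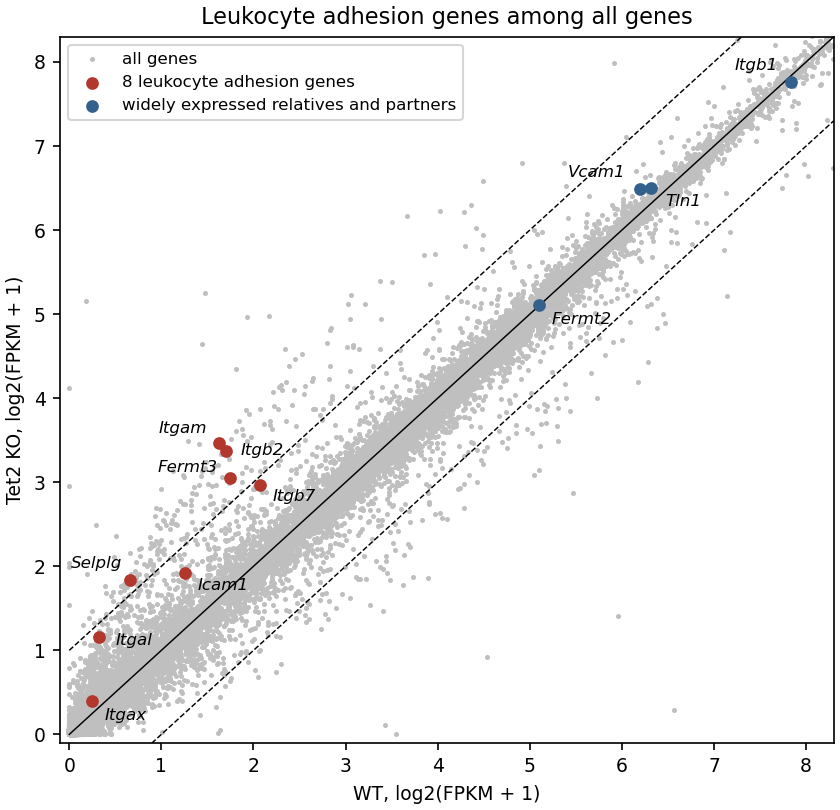
log2(FPKM + 1) in WT (x axis) and Tet2 KO (y axis) for all genes (grey), the 8 leukocyte adhesion genes (red) and 4 widely expressed relatives or partners (blue); the solid line marks equal values and the dashed lines a 2-fold difference. Itgam, Itgb2, Fermt3 and Selplg lie above the upper dashed line, whereas Itgb1, Fermt2, Tln1 and Vcam1 lie near the solid line.

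The other genes of leukocyte adhesion were grouped by role in 5 lists of 57 genes. Of these, 39 had a mean FPKM of at least 1. At least 2-fold higher in Tet2 KO were 8 of the 39 (20.5%) and 0 were lower, beside 2.08% and 1.21% of all 11692 genes. The median log2 difference of the 39 was 0.19. The lists were chosen with earlier results of these data known, so this share describes them and is not independent evidence of a direction. Of the 8 higher genes, 6 belonged to the kinases and adaptors that signal behind integrins in myeloid cells. Syk and Vav1 were under 1 FPKM in WT and reached the mean of 1 through Tet2 KO.

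Of the 7 signalling genes that averaged at least 1 FPKM, 6 were at least 2-fold higher, with a median log2 difference of 1.20. Tyrobp, the DAP12 adaptor that passes signals to Syk, was at 51.1 FPKM in Tet2 KO against 13.4 in WT, a log2 difference of 1.85. Fcer1g, the Fc receptor gamma chain, differed by 1.58, and the exchange factor Vav1 by 1.34. The kinase Syk differed by 1.12 and the phospholipase Plcg2 by 1.10. The Src family kinase Lyn was at 8.96 FPKM in Tet2 KO against 5.4 in WT, a log2 difference of 0.64. Fgr was at 0.46 FPKM and 0.105 FPKM.

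The integrin activation list held 16 genes, of which 10 had a mean FPKM of at least 1 and 0 differed by 2-fold. Their median log2 difference was 0.07, and their values ran from -0.09 for Cyth1 to 0.46 for Rassf5. Of the 6 genes under that mean, Rasgrp2, Fyb and Cytip had the largest differences on the same scale, 0.62, 0.64 and 0.62. They were named after their values were seen. Rasgrp2, an activator of Rap1 in blood cells, was at 0.976 FPKM in Tet2 KO against 0.287 in WT, 3.41-fold higher. The adaptor gene Fyb was at 0.999 FPKM against 0.284, 3.52-fold higher, and Cytip at 0.872 FPKM against 0.215, 4.05-fold higher. Talin (Tln1), which acts with kindlins on every integrin, was at 89.8 FPKM in Tet2 KO against 78.7 in WT. Filamin A (Flna), which competes with talin for the beta tail, was the highest of the list at 363 FPKM and 353 FPKM. The same list thus held Fermt2, a close relative of Fermt3, with a log2 difference of 0.01.

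Of the 6 further integrin chains, 3 had a mean FPKM of at least 1, and 0 of them reached the 2-fold limit with the added 1. The beta 3 chain Itgb3, used by platelets and other cells, differed most, at 4.03 FPKM in Tet2 KO against 1.99 in WT. Its plain ratio was 2.02-fold and its log2 difference 0.75. Itga4 differed by 0.34 and Itgb1 by -0.07.

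Of 11 integrin ligands, 5 had a mean FPKM of at least 1. C3, the complement protein whose fragment iC3b is bound by Mac-1, was at 6.85 FPKM in Tet2 KO against 1.66 in WT, a log2 difference of 1.56 and the only one of the 5 past the 2-fold limit. Vcam1, the ligand of alpha 4 integrins that satellite cells carry, was at 88.6 FPKM and 72.6 FPKM. Icam1 was at 3.13% of Vcam1 in Tet2 KO and 1.92% in WT. The lowest log2 difference was that of the junction protein gene Jam3, at -0.22. Madcam1, the gut ligand of alpha 4 beta 7, was listed at 0 in Tet2 KO and at 0.0591 FPKM in WT.

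Of 16 selectins, selectin ligands and their enzymes, 14 had a mean FPKM of at least 1. Of these, 1 was at least 2-fold higher in Tet2 KO and 0 were lower, with a median log2 difference of 0.14. Cd34, a sialomucin and a marker of the sorted satellite cells, was at 6.74 FPKM and 3.03 FPKM, a log2 difference of 0.94. The hyaluronan receptor Cd44 was the highest of the list, at 156 FPKM and 139 FPKM. Selp, the P-selectin of endothelium and platelets that PSGL-1 binds, was at 1.01 FPKM in Tet2 KO against 1.42 in WT, a log2 difference of -0.27 and the lowest of the list.

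**Figure D3:**
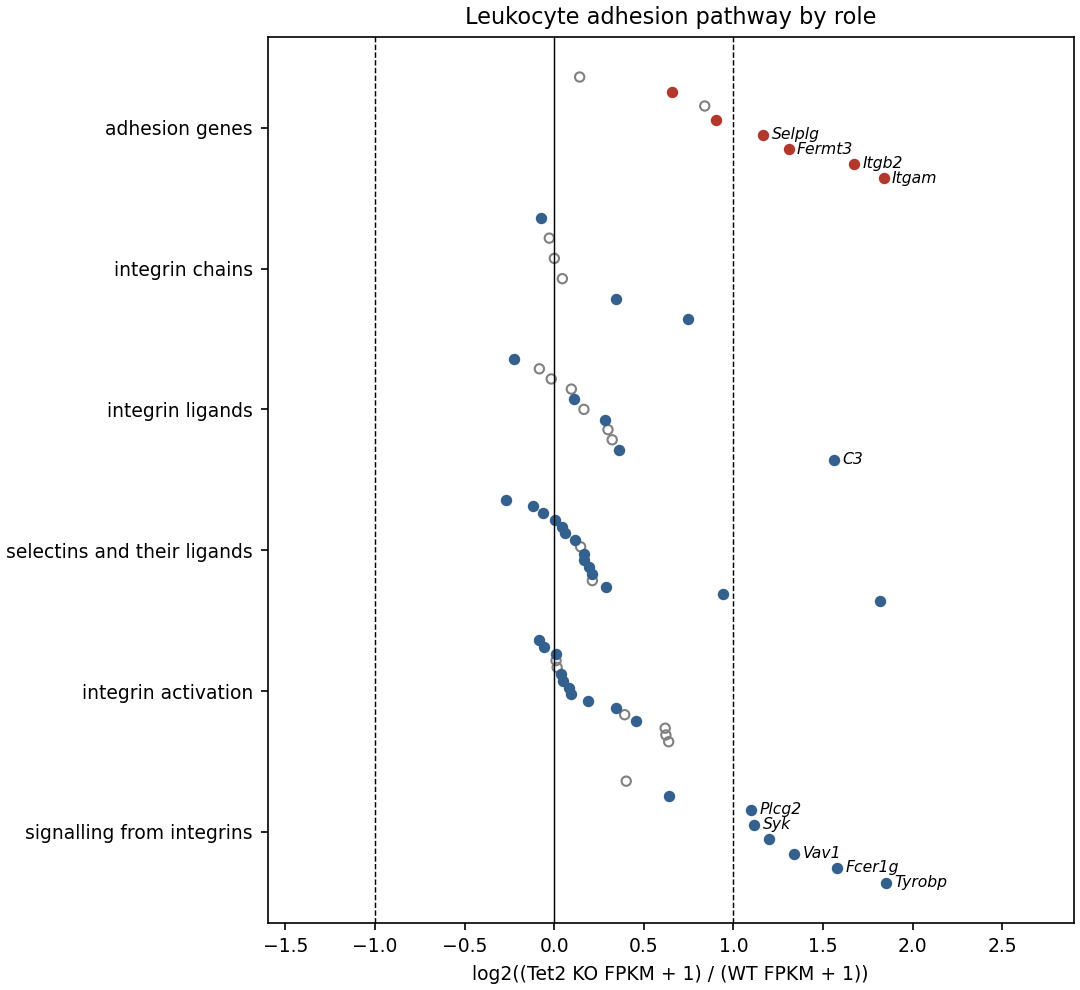
log2((Tet2 KO FPKM + 1) / (WT FPKM + 1)) of the 8 leukocyte adhesion genes (red) and of 57 genes of the same pathway (blue), in rows by role; each point is 1 gene, hollow points have a mean FPKM under 1, and dashed lines mark a 2-fold difference. Past the right dashed line lie 8 genes of the lists, 6 of them signalling genes, and 0 genes of the lists lie past the left one.

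Markers of leukocytes in general differed in the same direction as the 8 genes. Ptprc, which encodes CD45 and whose product the sort excluded, was at 5.67 FPKM in Tet2 KO against 1.36 in WT, a log2 difference of 1.5. Itgam, the other leukocyte marker of the gate, differed by 1.84. Among the remaining sort markers, Pecam1 (CD31) differed by -0.08, Ly6a (Sca1) by 0.05, Cd34 by 0.94 and Itga7 by -0.07. Ly6a, whose product was also excluded by the sort, was at 288 FPKM in Tet2 KO against 278 in WT.

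Of 6 genes common to leukocytes, 6 had a mean FPKM of at least 1 and 4 were at least 2-fold higher, beside 2.08% of all 11692 genes. Laptm5 was not counted, since its plain ratio was 2.15-fold but its log2 difference with the added 1 was 0.96. The FPKM of the 6 genes summed to 143 in Tet2 KO and 55.7 in WT, with a median log2 difference of 1.39. Of 10 macrophage markers, 9 had a mean FPKM of at least 1 and 7 were at least 2-fold higher, with sums of 93.4 and 29.9 FPKM and a median of 1.42. One of the higher genes, Adgre1 (F4/80), was at 3.67 FPKM in Tet2 KO against 0.712 in WT and so reached the mean of 1 only through Tet2 KO. The scavenger receptor gene Msr1 differed most, by 2.0, while Cd163 was at 0.0169 FPKM and 0.0206 FPKM.

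Of 12 neutrophil markers, 10 had a mean FPKM of at least 1 and 9 were at least 2-fold higher, with sums of 2005 FPKM in Tet2 KO against 565 in WT and a median of 1.76. S100a8, which encodes an abundant calcium-binding protein of neutrophils, was at 941 FPKM and 285 FPKM, and Ltf (lactoferrin) differed by 2.50. Of 12 T, B and NK lymphocyte markers, 0 reached a mean FPKM of 1, and their sums were 1.76 FPKM in Tet2 KO against 1.37 in WT. Among them Cd3e and Ncr1 were listed at 0 in Tet2 KO, and Cd3d, Cd3g and Ms4a1 in WT.

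The myoblast markers were present in both groups. Of 8 such genes, 8 had a mean FPKM of at least 1, and the muscle transcription factor Myod1 was at 313 FPKM in Tet2 KO against 336 in WT. Their sums were 1346 FPKM in Tet2 KO against 1786 in WT, and Myog, which encodes myogenin, was at 268 FPKM and 554 FPKM. Myog was the only 1 of the 8 at least 2-fold lower, beside 1.21% of all genes. All 8 had a lower value in Tet2 KO, with a median log2 difference of -0.15. Their log2 differences ran from -1.04 for Myog to -0.02 for Pax7, so the sum does not stand for each marker. In bulk samples, fewer cells of a type and less RNA per cell cannot be told apart. The part of leukocytes in the values of the 8 genes was not tested.

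The levels were also divided by that of Ptprc, a transcript that nearly all leukocytes carry. Itgb2 was 1.65 times Ptprc in Tet2 KO and 1.66 times in WT. Itgam was 1.77 and 1.54 times, Itgal 0.219 and 0.185 times, and Selplg 0.452 and 0.431 times. Fermt3 was 1.29 and 1.73 times. For Itgb7 the ratio to Ptprc was 1.21 in Tet2 KO and 2.36 in WT, for Icam1 0.490 and 1.03, and for Itgax 0.0551 and 0.139. The ratio to Ptprc thus differed little between groups for Itgb2, Itgam, Itgal and Selplg. It was lower in Tet2 KO for Fermt3, Itgb7, Icam1 and Itgax. This split depends on the divisor, and Ptprc was at 1.36 FPKM in WT with no spread known. Ptprc itself was 4.18-fold higher in Tet2 KO. The other genes common to leukocytes were 1.86-fold (Arhgdib), 2.15-fold (Laptm5), 2.84-fold (Cd53), 4.07-fold (Cd52) and 4.41-fold (Coro1a) higher. Fermt3, at 3.11-fold, lay between Cd53 and Ptprc. The Itgax ratios rest on 0.312 FPKM in Tet2 KO and 0.189 in WT.

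**Figure D4:**
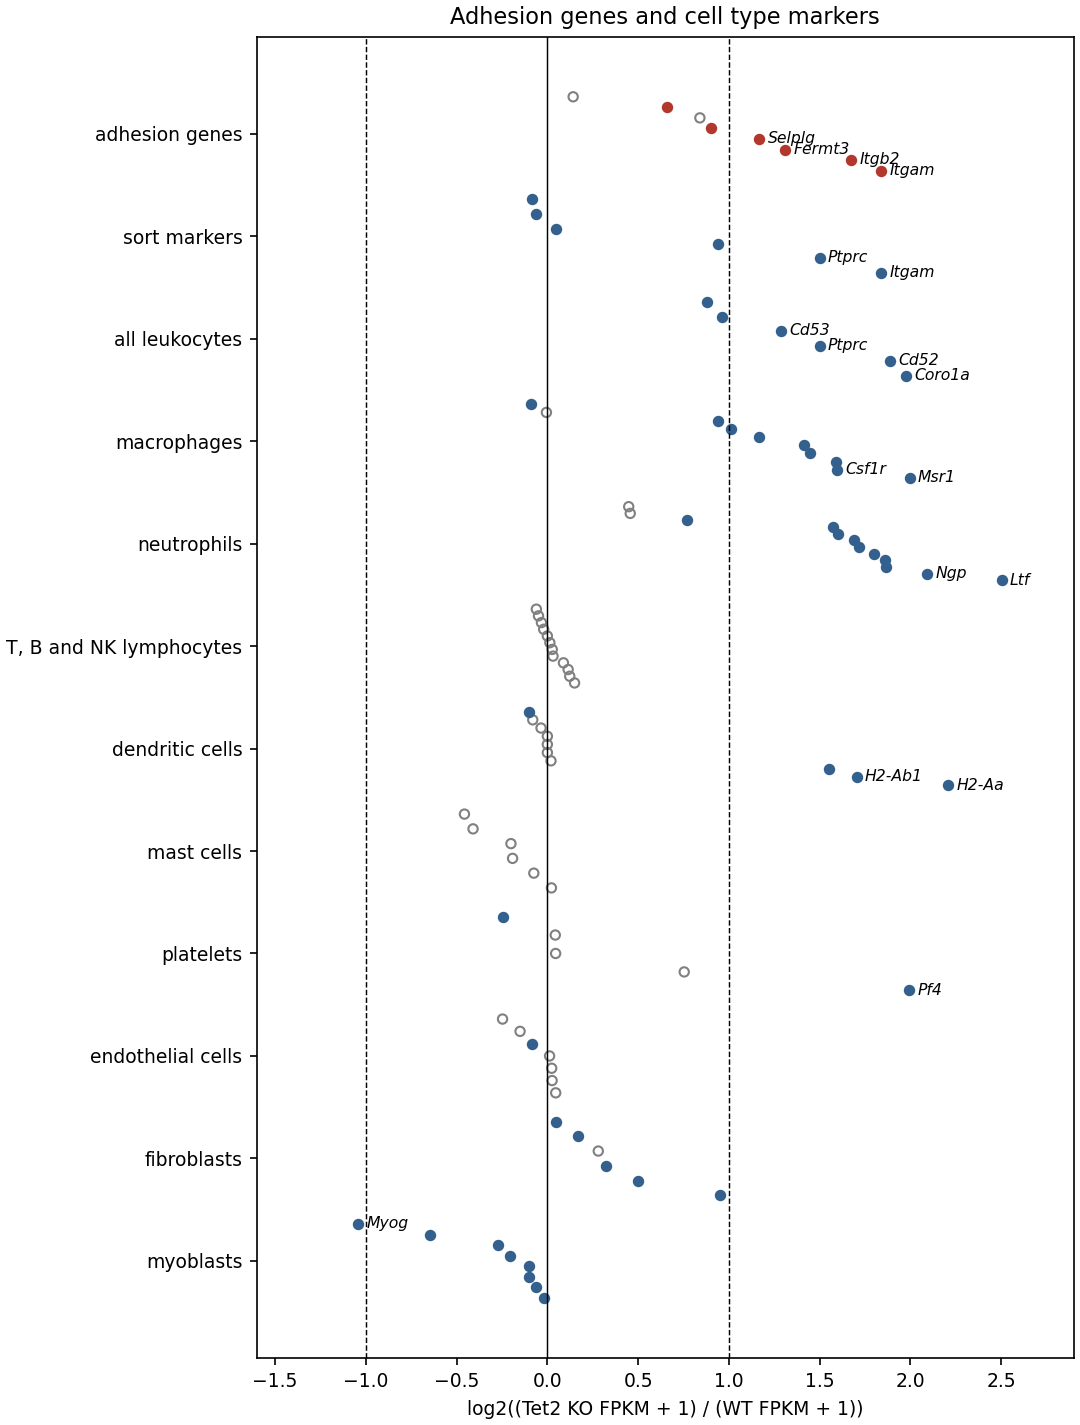
log2((Tet2 KO FPKM + 1) / (WT FPKM + 1)) of the 8 leukocyte adhesion genes (red) above lists of sort and cell type markers (blue); each point is 1 gene, hollow points have a mean FPKM under 1, dashed lines mark a 2-fold difference, and at most 2 genes past it are named in the longer lists. Markers of all leukocytes, macrophages and neutrophils lie mostly right of the right dashed line, the lymphocyte markers are all hollow and near 0, and Myog lies left of the left dashed line.

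The genes whose pair of values was nearest to that of Itgb2 were Lilr4b, Ms4a6c, Itgam, Cybb and Csf1r. Nearness was the Euclidean distance of log2(FPKM + 1) over the 2 group values, and it ran from 0.0693 for Lilr4b to 0.188 for Csf1r. Itgam was thus among the 5 nearest of all genes, at 0.118. The 5 nearest to Itgam were Itgb2, Lilr4b, Cybb, Cxcl12 and Ms4a6c, at distances from 0.118 to 0.219. Cybb, which encodes a subunit of the phagocyte NADPH oxidase, was at 10.4 FPKM in Tet2 KO against 2.38 in WT. The chemokine gene Cxcl12 was at 9.93 FPKM and 1.65 FPKM. Only 2 values per gene enter this measure.

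Distances to neighbours were taken between listed loci, and genes listed at a shared locus have the same position. Within 100 kb of the 8 genes lie 76 other genes of the table, of which 60 had a mean FPKM of at least 1. Of these, 1 (1.67%) was at least 2-fold higher in Tet2 KO, beside 2.08% of all 11692 genes. At least 2-fold lower were 3 (5%), beside 1.21% of all genes. The median log2 difference of the 60 was 0.03. Near Itgb2, 4 such genes lay between -0.23 and 0.15. Near Itgb7, 10 lay between -0.19 and 0.14, near Icam1 7 between -0.04 and 0.14, and near Selplg 5 between -0.07 and 0.04. Near Fermt3, 14 lay between -0.88 and 0.29, the lowest being Macrod1 at 12.8 FPKM in Tet2 KO against 24.3 in WT.

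The genes past the 2-fold limit lay near Itgam, Itgax and Itgal on chromosome 7. Pycard, the adaptor of inflammasomes, was at 7.79 FPKM in Tet2 KO against 3.19 in WT, a log2 difference of 1.07. The other 3 had lower values in Tet2 KO and are genes of muscle. Trim72, which encodes the membrane repair protein MG53, was at 15 FPKM in Tet2 KO against 40.9 in WT, a log2 difference of -1.39. Cox6a2, the muscle form of a cytochrome oxidase subunit, was at 2.61 FPKM and 8.32 FPKM, a difference of -1.37, and the table gives it the same locus as Itgad. Mylpf, a fast muscle myosin light chain gene near Itgal, was at 321 FPKM and 790 FPKM, a difference of -1.30. Itgam and the muscle gene Trim72, whose spans are 51.2 kb apart, thus differed in opposite directions.

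**Figure D5:**
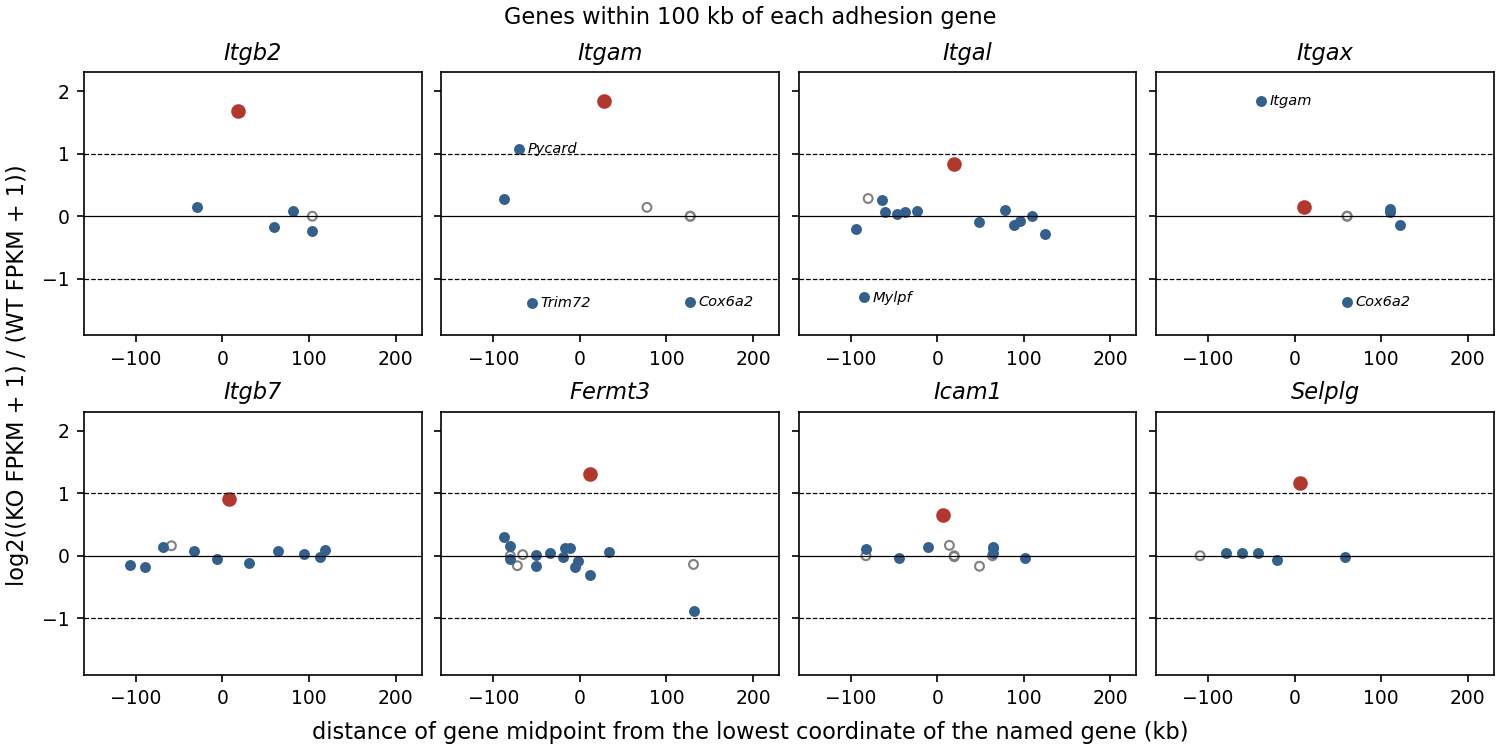
log2((KO FPKM + 1) / (WT FPKM + 1)) of the genes within 100 kb of each of the 8 leukocyte adhesion genes, 1 panel per gene (red point). The x axis is the distance in kb of the midpoint of the gene's listed locus. Hollow points have a mean FPKM under 1 and dashed lines mark a 2-fold difference. Most neighbours lie near 0, with Pycard above the upper dashed line and Trim72, Cox6a2 and Mylpf below the lower one.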

How the data were processed

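RNA of cultured primary myoblasts (2 WT and 2 Tet2 KO libraries) was prepared with TruSeq RNA v2. Per the labels and the study's methods, the authors used CASAVA and FastQC, trimmed adapters and low quality bases, aligned reads to mm9 with TopHat2 2.0.13 and ran Cuffdiff 2.2.1 (versions from the submitters' processing notes). The annotation is not given in the sources used here. The deposited table holds 1 FPKM value per gene and group as the authors' value, and how libraries were combined is not given in the sources used here. Its further columns, the authors' log2 fold change, test statistic, p-value, q-value and verdict, were not used. Depth is unknown.

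Groups came from the sample labels. Ratios used a pseudocount of 1, genes that averaged at least 1 FPKM over the 2 groups and a limit of 2-fold. Some genes of the lists enter the counts and are not reported here by name. With 1 value per group no test was run. The members and gene lists were chosen with earlier results of these data known. Named genes were the members, sort markers, list genes past 2-fold, at the highest FPKM or with extreme ratios, markers listed at 0, neighbours within 100 kb, the 5 nearest genes to Itgb2 and to Itgam, and Tet2. Coding identity, exons and shared 50-base stretches came from GENCODE vM1 on mm9, and promoters from RefSeq (GRCm38.p6). Python 3.11.15, numpy 2.4.6, pandas 2.3.3, Biopython 1.88 and matplotlib 3.10.9 were used, and the counting step was tested on simulated data. Alternatives were other pseudocounts, mean FPKM limits and fold limits, no filter, rescaling to TPM and centring on the median of all genes. A log2 value was taken as moved when it shifted by 1.5-fold or more, and a count when it changed by more than 1.5 times.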

Additional observations from a re-analysis of the deposited data

How the results depend on the processing

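No paired analysis was possible because the table holds 1 value per group, and for the same reason no library could be left out. The 8 genes kept a higher value in Tet2 KO after rescaling to TPM and after centring on the median of all genes. Pseudocounts, filters and fold limits cannot turn the direction of a gene, so those settings do not test it. With a pseudocount of 0.1, 334 of all genes were at least 2-fold higher, in place of 243, and 215 lower, in place of 142, and 5 of the leukocyte adhesion genes were higher. With no pseudocount 341 of all genes were higher and 224 lower, the median log2 difference of the adhesion genes was 1.85, and 5 of them were at least 2-fold higher, since Itgb7 then passed. With a mean FPKM of at least 5, 2 adhesion genes (of 3), 109 of all genes and 2 pathway genes (of 25) were higher. At 1.5-fold, 435 genes were higher and 338 lower. At 3-fold, 2 adhesion genes, 81 of all genes and 2 pathway genes were higher, 25 of all genes were lower, and among the neighbours 0 were higher and 0 lower. These shifts follow from the limits themselves. Of the recomputed summary values, 82 stayed within the stated limits and 14 did not. The 82 include medians under other fold limits, which cannot move. Among single genes, the log2 difference of Itgal moved to 1.93 and 2.31 and that of Selplg to 1.96 and 2.13 with a pseudocount of 0.1 and with none. No direction turned. Values under 1 FPKM (Itgax, and Itgal and Selplg in WT) are the least certain, since the fragments behind them are unknown.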

Other observations

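Marker lists of other cell types gave further values. Of 10 dendritic cell markers, 4 had a mean FPKM of at least 1, and the 3 at least 2-fold higher in Tet2 KO were the antigen presentation genes Cd74 (29.8 FPKM in Tet2 KO against 9.48 in WT), H2-Ab1 (5.44 and 0.976 FPKM) and H2-Aa (4.64 and 0.219 FPKM), which macrophages and B cells also express. H2-Ab1 and H2-Aa reached the mean of 1 only through Tet2 KO. The remaining marker with a mean FPKM of at least 1, Zbtb46, was at 2.16 FPKM in Tet2 KO against 2.39 in WT, a log2 difference of -0.10. Cd209a was listed at 0 in WT. Of 5 platelet markers, 2 had a mean FPKM of at least 1, and these differed in opposite directions. The chemokine gene Pf4, also expressed by some macrophages, was at 27.6 FPKM in Tet2 KO against 6.18 in WT. Gp1ba was at 1.14 FPKM in Tet2 KO against 1.54 in WT, a log2 difference of -0.24. The markers under that mean were named after their values were seen. Ppbp was at 1.22 FPKM in Tet2 KO against 0.318 in WT, 3.85-fold higher, while Gp9 differed by 0.04 and Itga2b by 0.05.

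The 6 mast cell markers stayed under a mean of 1 FPKM and summed to 1.33 FPKM in Tet2 KO against 2.58 in WT. Of 7 endothelial markers 1 had a mean FPKM of at least 1, and the list summed to 4.06 FPKM and 4.48 FPKM. Of 6 fibroblast markers 5 had a mean FPKM of at least 1, and 0 of them reached the 2-fold limit with the added 1. The median log2 difference was 0.32. Dcn differed most, with a plain ratio of 2.23-fold and a log2 difference of 0.95. No hypothesis was tested.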
